A study of Arabidopsis thaliana with 12 samples.

Results

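The jasmonate synthesis and signalling genes described here are 10 of the 32833 gene entries counted in mature seeds of Arabidopsis thaliana. They are LOX2 (AT3G45140), LOX3 (AT1G17420), AOS (AT5G42650), AOC1 (AT3G25760), AOC2 (AT3G25770), OPR3 (AT2G06050), JAR1 (AT2G46370), MYC2 (AT1G32640), JAZ1 (AT1G19180) and JAZ10 (AT5G13220). They were chosen because OPR3 was far lower in mutant seed coat than in Col-0 seed coat, so the seed coat comparison between genotypes is given for them as a description, with no test. The study sequenced stranded poly(A) RNA from 4 groups of 3 biological replicates, namely embryo of the Atsdr4l-5 dig2 double mutant, embryo of the wild type Col-0, seed coat of the same mutant and seed coat of Col-0. Its design asks which genes differ between mutant and wild type in each tissue. All plants grew with 16 h light and 8 h dark, and all seeds were collected at maturity, about 18 days after pollination, kept for 2 days and softened in water for 1 to 2 h before dissection. The fraction called seed coat also holds the endosperm, a thin living cell layer, and the sources used here do not give the kind of lesion in either mutated gene or say whether replicates came from separate plants, so p-values measure the spread between these libraries. Of the 10 genes, 7 had enough reads to be tested among 16238 genes. LOX2, AOC1 and AOC2 did not.

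Jasmonates are lipid hormones. In plastids a lipoxygenase such as LOX2 or LOX3 oxygenates linolenic acid, allene oxide synthase (AOS) and the allene oxide cyclases (AOC) turn the product into 12-oxophytodienoic acid (OPDA), and in peroxisomes OPR3 reduces OPDA before beta-oxidation shortens the chain to jasmonic acid. JAR1 joins jasmonic acid to isoleucine. That conjugate brings the receptor COI1 together with JAZ repressors, which are then degraded, and transcription factors such as MYC2 are set free. Several JAZ and synthesis genes are themselves induced by the hormone, and OPDA without its reduction is known in Arabidopsis to act with abscisic acid in holding back germination.

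The 250 bases before the annotated start of OPR3, AOS and JAZ10 are shown because these 3 genes fell together in the mutant embryo. They were read from the RefSeq genome TAIR10.1 by its own annotation, while the reads were counted on TAIR10. Capitals mark the letters ACGTG (core of elements bound by factors of the abscisic acid response) and CACGTG (the G-box, bound by MYC2 and related factors, which holds an ACGTG on each strand), searched on both strands, and CATGCA, the RY motif of seed genes, was searched as well and was in none of the 3. The windows are chr2:2362376-2362625 (minus strand) for OPR3, chr5:17099596-17099845 (minus strand) for AOS and chr5:4218536-4218785 (plus strand) for JAZ10.
OPR3: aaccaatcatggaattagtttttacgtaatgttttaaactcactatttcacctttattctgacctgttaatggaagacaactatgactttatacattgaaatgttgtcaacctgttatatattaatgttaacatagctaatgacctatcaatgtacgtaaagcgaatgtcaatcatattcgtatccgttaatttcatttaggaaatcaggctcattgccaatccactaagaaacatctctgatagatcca
AOS: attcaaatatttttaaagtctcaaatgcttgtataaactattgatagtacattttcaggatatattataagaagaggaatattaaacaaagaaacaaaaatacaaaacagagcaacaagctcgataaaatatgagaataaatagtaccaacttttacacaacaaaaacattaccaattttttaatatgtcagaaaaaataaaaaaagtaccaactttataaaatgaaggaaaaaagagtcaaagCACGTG
JAZ10: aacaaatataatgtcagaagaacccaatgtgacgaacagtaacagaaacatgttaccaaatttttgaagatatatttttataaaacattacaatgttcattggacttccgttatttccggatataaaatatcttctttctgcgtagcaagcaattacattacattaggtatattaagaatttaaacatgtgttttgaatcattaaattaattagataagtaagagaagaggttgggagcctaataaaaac
AOS held the G-box, which began 6 bases before the annotated start. OPR3 and JAZ10 held no searched motif in this window. Of 27443 promoters of the same length, 6.49% held CACGTG, 22.9% held ACGTG and 8.43% held CATGCA.

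The libraries held 13685009 to 17619031 gene reads, apart from Col-0 seed coat replicate 3 with 10301817. Libraries of a group correlated at r of 0.973 to 0.991 across genes, and libraries of different groups at 0.806 to 0.927. Levels are given as CPM, counts scaled to a common library size after TMM scaling, a factor that evens out differences in composition. Of the mutated genes, DIG2 (locus AT5G50360) was still read in the mutant, with 115 to 144 CPM in mutant embryo against 76.3 to 194 CPM in Col-0 embryo and 106 to 165 CPM in mutant seed coat against 103 to 199 CPM in Col-0 seed coat. The files do not pair the name AtSDR4L with a locus. The summed level of 10 seed coat markers was 20.4 to 23.8 CPM in mutant and 13.2 to 18.4 CPM in Col-0 seed coat, against 1.12 to 2.52 and 0.845 to 2.26 CPM in mutant and Col-0 embryo, with 5 of the 10 at 0 reads in each embryo group. BAN gave the largest part, with means of 13.4 CPM in mutant and 9.11 CPM in Col-0 seed coat. MUM2 went the other way, at 0.305 and 0.68 CPM in mutant and Col-0 embryo against 0.0643 and 0.0252 CPM in seed coat. The summed level of the 13 embryo markers did not part the tissues as clearly, at 63.0 to 66.9 CPM in mutant embryo, 81.6 to 86.0 CPM in Col-0 embryo, 44.6 to 49.8 CPM in mutant seed coat and 61.6 to 68.9 CPM in Col-0 seed coat. WOX2 and MP were higher in seed coat. WOX2 averaged 24.9 and 16.7 CPM in mutant and Col-0 embryo against 32 and 29.4 CPM in seed coat. PHB lay the other way, at 13.2 and 18 CPM in mutant and Col-0 embryo against 1.09 and 6.8 CPM in seed coat.

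In the embryo, the comparison of mutant with Col-0 asks how these genes differ in a tissue on which they were not chosen. OPR3, AOS and JAZ10 fell in the mutant and JAZ1 rose, so 4 of the 7 tested genes passed edgeR's quasi-likelihood test (Benjamini-Hochberg adjusted p under 0.05 over all genes). Over all 16238 genes 46.9% passed, 25.4% as higher and 21.4% as lower, so the count of 4 of 7 is near the background. The groups did not overlap for these 4 genes, and did not for 57.3% of all genes. The median log2 fold change was -0.35 over the 7 genes and 0.00 over all genes. With libraries scaled by total reads alone the median of all genes moved to -0.35, and calls over all genes numbered 2296 higher and 6882 lower, beside 4129 higher and 3481 lower with TMM. In bulk tissue, fewer cells of a type and less RNA per cell cannot be told apart.

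OPR3, the reductase that commits OPDA to jasmonic acid, had 1.01, 1.59 and 0.945 CPM in the mutant embryos, against 9.31, 6.13 and 6.93 CPM in the Col-0 embryos. The groups did not overlap. The log2 fold change was -2.66 with a standard error (SE) of 0.30, a level 6.34-fold lower in the mutant (edgeR's quasi-likelihood test, adjusted p = 1.52e-05), and 1.52% of all genes had a lower log2 fold change. The difference rests on 58 reads in mutant embryo and 431 reads in Col-0 embryo, a ratio 6.48-fold lower in the mutant with a 95% counting interval of 4.92 to 8.68, which covers counting error only.

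AOS, which makes the unstable allene oxide that the cyclases act on, had 2.69, 3.85 and 2.72 CPM in mutant embryos, against 7.92, 7.91 and 9.18 CPM in Col-0 embryos. All mutant libraries lay below all Col-0 libraries, at a mean of 3.09 ± 0.665 CPM in mutant and 8.34 ± 0.733 CPM in Col-0 (SD, n = 3 each). AOS fell 2.71-fold in the mutant (log2 -1.44, SE 0.21, adjusted p = 0.000109 by edgeR's quasi-likelihood test).

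Upstream of AOS, the lipoxygenase gene LOX3 had 0.560, 2.52 and 0.708 CPM in mutant embryos, against 1.58, 0.323 and 1.58 CPM in Col-0 embryos. The groups overlapped, and the log2 fold change of 0.08 had a 95% interval of -1.39 to 1.56 (edgeR's quasi-likelihood test, adjusted p = 0.937), so changes of more than 2-fold either way lie within it. On the strand opposite to the gene, which was not counted, LOX3 held 23 reads in mutant embryo and 6 in Col-0 embryo. LOX2, a lipoxygenase known from wounded leaves, had 0 reads in all 12 libraries, and so did AOC1. AOC2 had 1 read in each Col-0 embryo library and 0 in the other libraries. Counts of 0 allow up to 0.0602 CPM in mutant embryo, 0.0525 CPM in Col-0 embryo, 0.0895 CPM in mutant seed coat and 0.0794 CPM in Col-0 seed coat (3 reads per group). In exons of LOX2, AOC1 and AOC2, 100%, 97.8% and 99.9% of 50-base windows occur once in the reference genome.

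JAR1, the enzyme that makes the active isoleucine conjugate, had 19.5, 22.9 and 19.4 CPM in mutant embryos, against 32.2, 25 and 21.6 CPM in Col-0 embryos. Its groups overlapped in a narrow range. The log2 fold change of -0.35 (SE 0.16, 95% interval -0.70 to -0.01) did not pass edgeR's quasi-likelihood test over all genes (adjusted p = 0.0874), but passed with libraries scaled by total reads alone (-0.71, adjusted p = 0.00687) and without Col-0 embryo replicate 3 (-0.47, adjusted p = 0.0358).

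MYC2, the basic helix-loop-helix factor that JAZ proteins hold back, had 14.5, 55.2 and 21.1 CPM in mutant embryos, against 52.7, 27.4 and 31.3 CPM in Col-0 embryos. The highest library was a mutant one and so were the 2 lowest, and the test was not passed (log2 -0.30, SE 0.43, adjusted p = 0.590 by edgeR's quasi-likelihood test). Without mutant replicate 2 the log2 fold change was -1.06 (adjusted p = 0.0223), and without Col-0 replicate 1 it was 0.04.

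JAZ1, a repressor that is degraded on hormone perception, had 29.2, 71.9 and 28.3 CPM in mutant embryos, against 24.0, 11.5 and 15.2 CPM in Col-0 embryos. All mutant libraries lay above all Col-0 libraries, by a narrow margin for 2 of them. JAZ1 rose 2.54-fold (log2 1.35, SE 0.42, adjusted p = 0.0181 by edgeR's quasi-likelihood test). The call was lost without mutant replicate 2 (0.77, adjusted p = 0.0951), without Col-0 replicate 2 (1.13, adjusted p = 0.0696), without Col-0 replicate 3 (1.28, adjusted p = 0.0570) and with total reads as the scale (1.00, adjusted p = 0.0784).

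JAZ10, a repressor whose splice forms differ in how they respond to the hormone, had 5.15, 3.79 and 4.13 CPM in mutant embryos, against 7.25, 8.23 and 9.35 CPM in Col-0 embryos. The groups did not overlap, and JAZ10 fell 1.89-fold (log2 -0.92, SE 0.18, adjusted p = 0.00107 by edgeR's quasi-likelihood test). JAZ1 and JAZ10 thus moved in opposite directions in the mutant embryo.

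**Figure D1:**
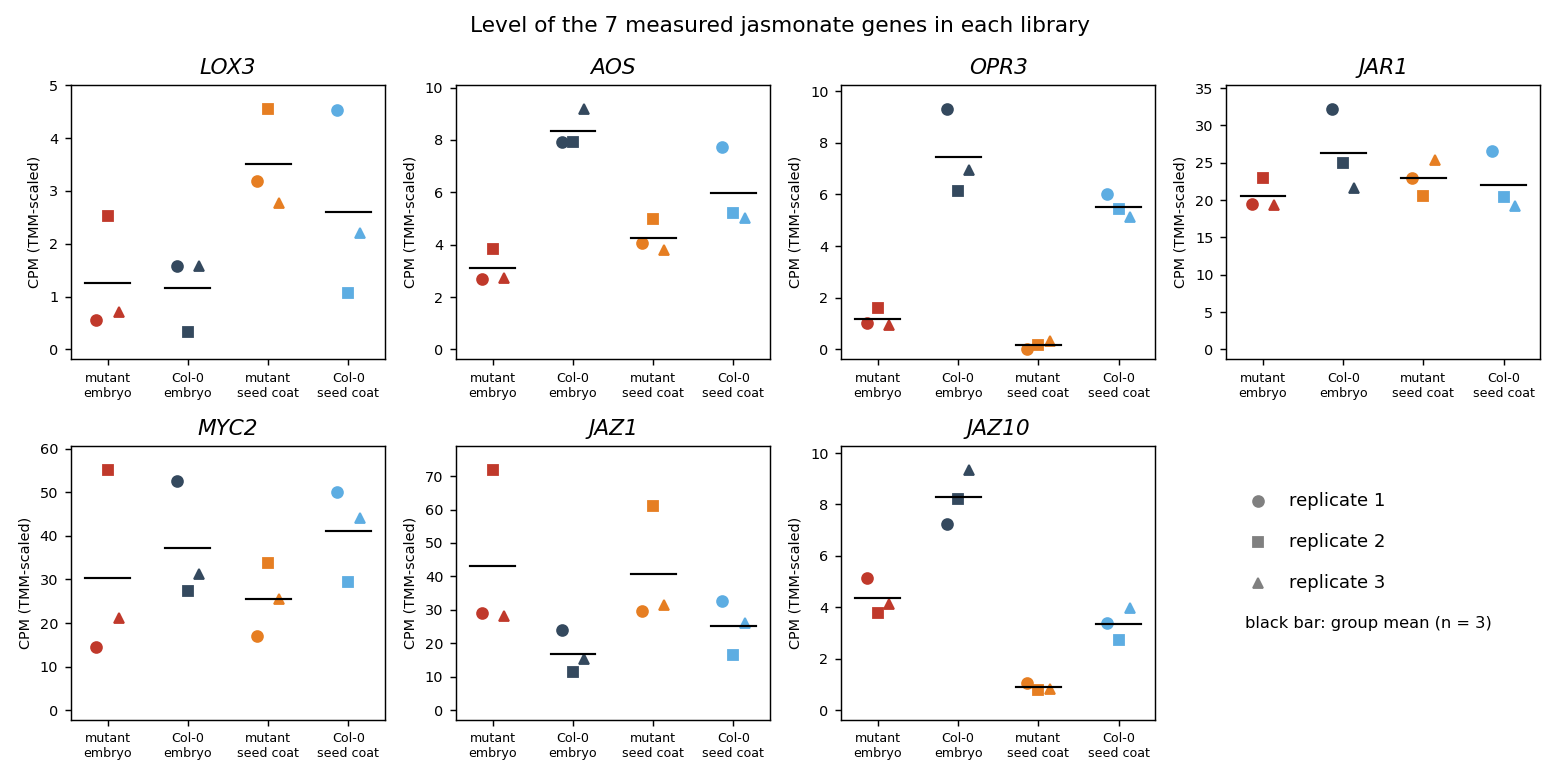
CPM of the 7 jasmonate genes with enough reads (y axis) in each library, by group (x axis), with circles, squares and triangles for replicates 1, 2 and 3 and black bars for group means. OPR3 lay at 0 to 0.336 CPM in mutant seed coat against 5.13 to 6 CPM in Col-0 seed coat, and MYC2 and JAZ1 were highest in replicate 2 of the mutant and replicate 1 of Col-0 in both tissues.

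In the seed coat, OPR3 had 0, 0.178 and 0.336 CPM in the mutant, against 6, 5.43 and 5.13 CPM in Col-0. These values chose the genes. The 3 mutant libraries held 0, 2 and 4 OPR3 reads, 6 in all against 211 in Col-0 seed coat. The ratio of reads was 31.2-fold lower in the mutant, with a 95% counting interval of 14.1 to 85.9. That interval covers counting error only, and it is no test of the difference because these reads chose the genes. JAZ10 had 1.06, 0.803 and 0.839 CPM in mutant seed coat, against 3.40, 2.72 and 3.98 CPM in Col-0 seed coat. AOS had 4.05, 4.99 and 3.78 CPM in mutant seed coat, against 7.73, 5.21 and 5.03 CPM in Col-0 seed coat. For these 3 genes every mutant library lay below every Col-0 library, although for AOS the highest mutant and lowest Col-0 libraries were close. Groups lay apart with the mutant lower in 27.1% of all genes, and nothing is read from the count of 3 because the genes were chosen on this comparison.

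LOX3 had 3.18, 4.55 and 2.77 CPM in mutant seed coat, against 4.53, 1.06 and 2.20 CPM in Col-0 seed coat. JAR1 had 22.9, 20.6 and 25.4 CPM in mutant seed coat, against 26.6, 20.4 and 19.2 CPM in Col-0 seed coat. The groups overlapped for both genes. MYC2 had 17.0, 33.9 and 25.6 CPM in mutant seed coat, against 50.1, 29.4 and 44.1 CPM in Col-0 seed coat. JAZ1 had 29.8, 61.1 and 31.3 CPM in mutant seed coat, against 32.7, 16.5 and 26.2 CPM in Col-0 seed coat. For MYC2 and JAZ1 the groups also overlapped. The summed level of the 8 endosperm markers, nearly all from EPR1, was 184000 to 202000 CPM in mutant seed coat against 135000 to 165000 CPM in Col-0 seed coat, and its part in the seed coat values was not tested.

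Set side by side, the log2 fold change of mutant over Col-0 was, first for embryo and then for seed coat, -2.66 and -4.89 for OPR3, -0.92 and -1.89 for JAZ10, -1.44 and -0.50 for AOS, and 1.35 and 0.70 for JAZ1. It was -0.30 and -0.69 for MYC2, -0.35 and 0.06 for JAR1, and 0.08 and 0.40 for LOX3. The seed coat SE was 0.44 for OPR3, 0.25 for JAZ10, 0.21 for AOS, 0.42 for JAZ1, 0.44 for MYC2, 0.16 for JAR1 and 0.61 for LOX3. Leaving out 1 library at a time, the seed coat value of OPR3 ranged from -5.78 (without mutant replicate 3) to -4.37 (without mutant replicate 1). The difference between the tissues was not tested, because the seed coat values enter it.

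**Figure D2:**
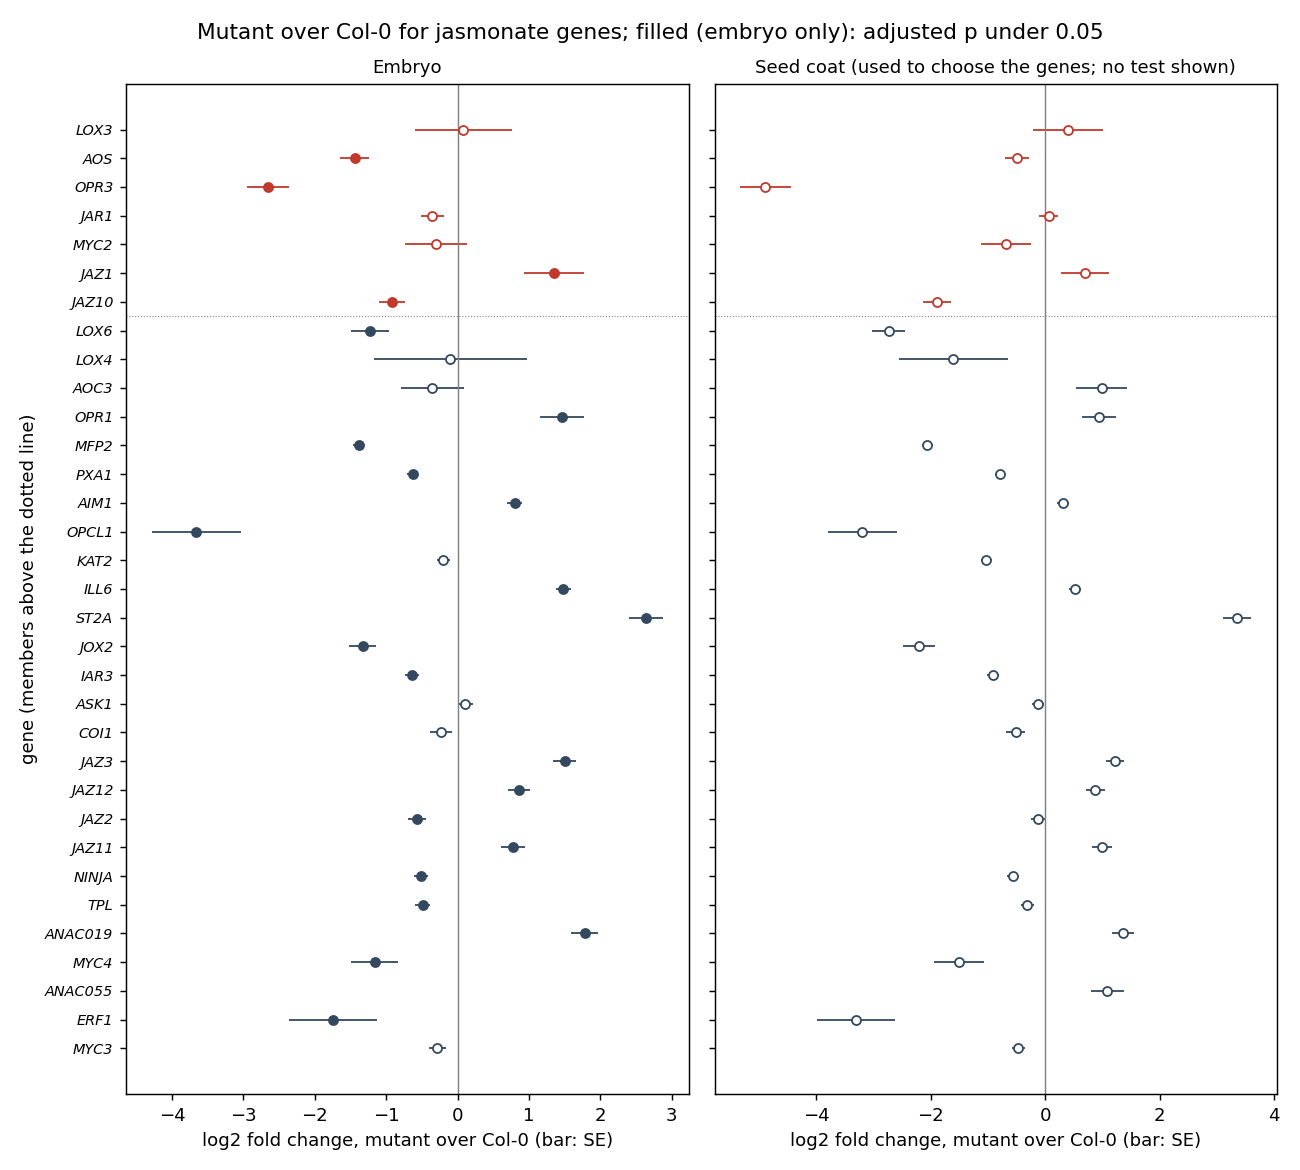
Log2 fold change of mutant over Col-0 (x axis, bars for SE) in embryo and seed coat for the 7 jasmonate genes above the dotted line and the named genes of the wider pathway below it, with filled points in the embryo for an adjusted p under 0.05 and no test shown in the seed coat. OPR3 stood at -2.66 in embryo and -4.89 in seed coat, and ST2A, an enzyme of jasmonate turnover, at 2.64 and 3.35; ANAC055 has no embryo point because Col-0 embryo held 0 reads.

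LOX3, MYC2 and JAZ1 varied more between replicates than most genes. The SD of log2 CPM within groups was 0.92 for LOX3, 0.64 for MYC2 and 0.60 for JAZ1, against a median of 0.21 over all genes, while it was 0.52 for OPR3, 0.25 for AOS, 0.22 for JAZ10 and 0.22 for JAR1. For LOX3, MYC2 and JAZ1 the highest library was replicate 2 in both mutant groups and replicate 1 in both Col-0 groups. Of all genes, 40.3% were highest in replicate 2 in mutant embryo and 38.1% in mutant seed coat. In Col-0, 35.6% were highest in replicate 1 in embryo and 32.1% in seed coat. The lipoxygenase gene LOX4 (SD 1.77) and the cyclase gene AOC3 (SD 0.66) of the wider pathway had the same order, and these 5 genes were singled out for it after their values were seen, so it is a description. The lipoxygenase gene LOX6, with a smaller SD of 0.38, was highest in the same libraries and is not among the 5. Other wider genes that varied as much shared it only in part, since OPCL1 (SD 0.90), CYP94B3 (0.88), ERF1 (0.72) and JOX4 (0.65) were highest in replicate 3 in Col-0 seed coat. OPCL1 matched the 5 genes in the other groups, CYP94B3 in both embryo groups, JOX4 in both mutant groups and ERF1 in Col-0 embryo. OPR3 was highest in the same libraries as the 5 genes apart from mutant seed coat, where replicate 3 was. LOX4 had 0.224, 15.4 and 0.886 CPM in mutant embryos, 8.93, 2.15 and 6.03 CPM in Col-0 embryos, 3.76, 45.9 and 13.4 CPM in mutant seed coats and 83.1, 37.1 and 72.5 CPM in Col-0 seed coats. JAZ10 did not share this order and was highest in mutant replicate 1 and Col-0 replicate 3 in both tissues.

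**Figure D3:**
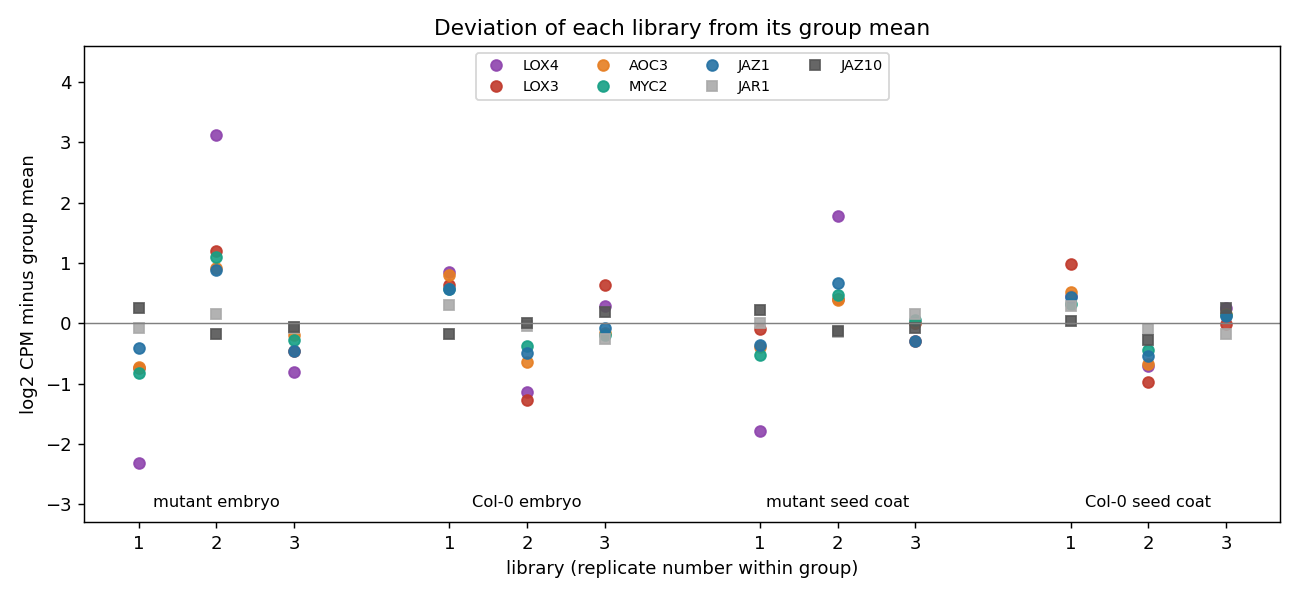
Log2 CPM of each library minus the mean of its group (y axis) by library (x axis, replicate number within group), with circles for LOX4, LOX3, AOC3, MYC2 and JAZ1 and squares for JAR1 and JAZ10. The circles lie highest in mutant replicate 2 and Col-0 replicate 1 of both tissues, and LOX4 reaches 3.12 in mutant embryo replicate 2.

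Seed coat was also compared with embryo within each genotype. In Col-0, JAZ10 fell in seed coat to 3.37 ± 0.633 CPM, against 8.28 ± 1.05 CPM in embryo (SD, n = 3 each), a log2 fold change of -1.31 (SE 0.19, adjusted p = 0.000136 by edgeR's quasi-likelihood test). In the mutant, JAZ10 averaged 0.901 ± 0.139 CPM in seed coat and 4.36 ± 0.710 CPM in embryo (log2 -2.27, SE 0.24, adjusted p = 1.19e-05 by the same test). OPR3 averaged 0.171 ± 0.168 CPM in mutant seed coat and 1.18 ± 0.358 CPM in mutant embryo, and 5.52 ± 0.441 CPM in Col-0 seed coat and 7.46 ± 1.65 CPM in Col-0 embryo. Within each genotype every OPR3 seed coat library lay below every embryo library, although in Col-0 the highest seed coat and lowest embryo libraries were close. Mutant seed coat held 6 OPR3 reads in all. This order is given with no test because seed coat values of OPR3 chose the genes. The share of all genes with such an order was not computed.

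Of the 6 genes tested between tissues JAZ10 was the single one past the threshold in either genotype, beside 46.6% of all genes in Col-0 and 34.9% in the mutant. Replicates of the same number deviated together in both tissues of a genotype, though weakly for replicate 3 of the mutant (r = 0.162). With the number as a block 5 of the 6 passed in Col-0, beside 59.0% of all genes in that fit. Under the block LOX3 and JAZ1 were higher and AOS, JAR1 and JAZ10 lower in Col-0 seed coat. In the mutant 2 of the 6 passed with the block, LOX3 and JAZ10, beside 44.6% of all genes. In Col-0 the blocked log2 fold changes by edgeR's quasi-likelihood test were 1.16 for LOX3 (adjusted p = 0.00438), -0.49 for AOS (adjusted p = 0.0207), -0.28 for JAR1 (adjusted p = 0.0168) and 0.55 for JAZ1 (adjusted p = 0.000277), against adjusted p of 0.154, 0.0708, 0.221 and 0.284 without the block. In the mutant LOX3 was higher in seed coat under the block (1.60, adjusted p = 0.00199 by the same test), against 1.5 with adjusted p = 0.0910 without it. MYC2 passed in neither genotype, with log2 fold changes of 0.15 in Col-0 (adjusted p = 0.801) and -0.24 in the mutant (adjusted p = 0.706). With libraries scaled by total reads alone, the median of all genes moved to -0.46 in Col-0 and -0.43 in the mutant. Calls then numbered 1635 higher and 8601 lower, against 3966 and 3609, in Col-0, and 1282 higher and 8168 lower, against 2749 and 2920, in the mutant.

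Divided by exon length, JAZ1 had the highest level of the 10 genes in both mutant groups, at 23.9 ± 13.8 CPM per kb in mutant embryo and 22.6 ± 9.78 CPM per kb in mutant seed coat (SD, n = 3), although in mutant embryo the spread of MYC2 reached that of JAZ1. In Col-0 the 3 leading genes lay within their spreads, with 9.37 ± 3.58 for JAZ1, 11.3 ± 4.15 for MYC2 and 9.65 ± 1.97 CPM per kb for JAR1 in embryo, and 13.9 ± 4.50 for JAZ1, 12.5 ± 3.23 for MYC2 and 8.10 ± 1.47 CPM per kb for JAR1 in seed coat. In the mutant, MYC2 at 9.20 ± 6.65 and JAR1 at 7.57 ± 0.715 CPM per kb in embryo, and 7.75 ± 2.57 and 8.45 ± 0.887 CPM per kb in seed coat, did not differ beyond their spread. The synthesis genes OPR3, AOS and LOX3 and the repressor gene JAZ10 were lower. OPR3, AOS and JAZ10 stood at 4.37 ± 0.968, 4.10 ± 0.361 and 3.74 ± 0.476 CPM per kb in Col-0 embryo, within their spreads of each other, whereas in mutant seed coat they stood at 0.100 ± 0.0984, 2.1 ± 0.314 and 0.407 ± 0.0630 CPM per kb. LOX3 lay at 0.376 to 1.13 CPM per kb over the 4 group means.

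The other genes of the pathway were described from a list of 62, of which 41 had enough reads. In the embryo 10 of the 41 rose, 14 fell and 17 did not pass edgeR's quasi-likelihood test, beside the background of 46.9%, and the median log2 fold change was -0.20 against 0.00 over all genes. These calls include ANAC055 (higher) and ERF1 (lower), which had enough reads only through the seed coat groups. In the seed coat 12 were past the threshold as higher and 18 as lower, beside 24.8% and 23.5% over all genes (48.4% in either direction). Nothing is read from these seed coat counts. The pathway was chosen on this comparison, and the list was written with earlier results of these data known. The JAZ family, members included, split in both directions. In the embryo 5 of its 11 tested genes rose, 4 fell and 2 did not pass.

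JAZ3, which had the highest level per length of the family in mutant embryo, rose to 117 ± 4.42 CPM in mutant embryo, against 41.6 ± 5.02 CPM in Col-0 embryo (log2 1.5, SE 0.16, adjusted p = 9.8e-06 by edgeR's quasi-likelihood test). JAZ12 (log2 0.85), JAZ11 (0.78) and JAZ9 (2.25) also rose, with adjusted p of 0.000675, 0.00216 and 0.0023 by the same test, and JAZ11 lost its call with total reads as the scale (0.42, adjusted p = 0.0840). JAZ2 (-0.57), JAZ4 (-0.69) and JAZ8 (-1.43) fell with adjusted p of 0.00209, 0.00288 and 0.00344 by the same test. JAZ8, a repressor that lacks the degron by which COI1 recognises many JAZ proteins, had 7.34, 4.32 and 7.68 CPM in mutant embryos, against 25.7, 12.8 and 13.9 CPM in Col-0 embryos. JAZ6 had 3.58 ± 1.09 CPM in mutant embryo and 1.91 ± 1.26 CPM in Col-0 embryo (adjusted p = 0.0981), and JAZ7 had 28.9 ± 3.79 CPM in mutant embryo and 24.3 ± 4.14 CPM in Col-0 embryo (adjusted p = 0.356), and neither passed the edgeR test; without Col-0 embryo replicate 1, JAZ6 rose (log2 1.59, adjusted p = 0.00618). JAZ4, JAZ6, JAZ7, JAZ8 and JAZ9 are named to complete the family, after their values were seen.

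Between tissues, 14 of the 41 wider genes were higher and 7 lower in Col-0 seed coat than in Col-0 embryo, beside 24.4% and 22.2% of all genes. In the mutant 7 were higher and 7 lower in seed coat, beside 16.9% and 18% of all genes. With the replicate block 19 were higher and 9 lower of 40 tested in Col-0, beside 59% of all genes called in that fit. The blocked fit of the mutant gave 10 higher and 8 lower of 37 tested, beside 44.6% of all genes called. JAZ4 averaged 29.1 ± 2.40 CPM in mutant seed coat and 4.35 ± 0.572 CPM in mutant embryo (log2 2.74, SE 0.15, adjusted p = 4.14e-08 by edgeR's quasi-likelihood test), and 38.1 ± 2.27 CPM in Col-0 seed coat and 7.03 ± 1.49 CPM in Col-0 embryo (log2 2.43, SE 0.15, adjusted p = 5.94e-08). JAZ10 lay the other way in both genotypes, as given above. JAZ7 was lower in Col-0 seed coat than in Col-0 embryo, at 10.6 ± 3.85 against 24.3 ± 4.14 CPM (log2 -1.21, adjusted p = 0.000832 by the edgeR test), while in the mutant the values were 24.7 ± 4.31 CPM in seed coat and 28.9 ± 3.79 CPM in embryo (log2 -0.23, adjusted p = 0.442, and -0.64 with adjusted p = 0.0196 on total reads).

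**Figure D4:**
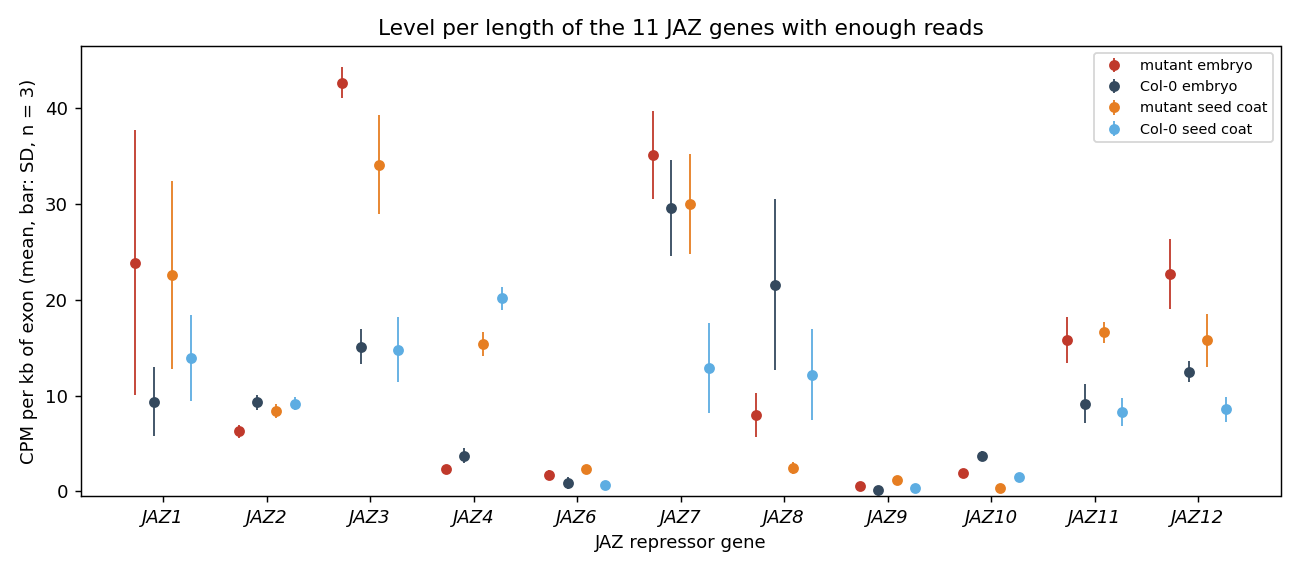
CPM per kb of exon (y axis, mean with SD, n = 3) for the 11 JAZ genes with enough reads (x axis) in the 4 groups. JAZ3 stood at 42.7 CPM per kb in mutant embryo against 15.1 in Col-0 embryo, JAZ8 at 7.99 against 21.6, and JAZ4 was higher in both seed coat groups than in both embryo groups.

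Around the measured synthesis genes, the embryo changes also ran both ways. LOX6, another lipoxygenase of the pathway, fell to 7.13 ± 1.64 CPM in mutant embryo, against 16.6 ± 6.05 CPM in Col-0 embryo (log2 -1.23, SE 0.27, adjusted p = 0.00243 by edgeR's quasi-likelihood test). LOX4 and AOC3 did not pass, although LOX4 was lower without mutant replicate 2 (log2 -3.37, adjusted p = 0.0387), and of the 4 AOC genes AOC3 held nearly all reads, at 15 ± 9.08 CPM in mutant and 19 ± 10 CPM in Col-0 embryo. OPR1, a relative of OPR3 that is thought to reduce other substrates, rose to 14.7 ± 4.16 CPM in mutant embryo, against 5.35 ± 2.12 CPM in Col-0 embryo (log2 1.46, SE 0.31, adjusted p = 0.00203 by the same test). OPR1 overlaps its neighbour OPR2 on the same strand, so its count is uncertain to that extent, though OPR2 held at most 1.08 CPM in a group mean. In the seed coat OPR1 had 34.6, 40.7 and 31.5 CPM in the mutant, against 19.5, 12.5 and 24.0 CPM in Col-0, so OPR1 and OPR3 lay in opposite directions in both tissues.

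Of the 7 beta-oxidation genes, which act after OPR3 and also break down storage lipids, 1 rose, 3 fell and 3 did not pass in the embryo, beside 25.4% higher and 21.4% lower over all genes. OPCL1, a ligase that activates the OPR3 product with coenzyme A, had 0.224, 0.930 and 0.177 CPM in mutant embryos, against 8.35, 2.53 and 5.52 CPM in Col-0 embryos. It fell with no overlap of the groups (log2 -3.66, SE 0.62, adjusted p = 0.00044 by edgeR's quasi-likelihood test). Leaving out 1 library at a time, the log2 fold change ranged from -4.71 (without mutant replicate 2) to -3.21 (without Col-0 replicate 1). In the seed coat it had 0.193, 1.43 and 0.839 CPM in the mutant, against 8.20, 5.21 and 9.85 CPM in Col-0. MFP2 fell to 275 ± 14 CPM in mutant embryo, against 714 ± 43.2 CPM in Col-0 embryo (log2 -1.38, adjusted p = 2.01e-07 by edgeR), and its paralogue AIM1 rose to 483 ± 48.9 CPM against 277 ± 11.2 CPM (log2 0.80, adjusted p = 5.56e-05 by edgeR); both are multifunctional proteins of the cycle. PXA1, the peroxisomal importer, fell as well (log2 -0.63, adjusted p = 3.86e-05 by edgeR), and the thiolase gene KAT2, the highest per length, did not pass (log2 -0.20, adjusted p = 0.106 by edgeR), but passed with total reads as the scale (-0.56, adjusted p = 0.000303) and by DESeq2 (-0.24, adjusted p = 0.0213).

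Genes of jasmonate turnover also ran both ways, with 2 of 7 tested genes higher, 3 lower and 2 not past the test in the embryo, beside 25.4% and 21.4% of all genes. ST2A, a sulfotransferase that acts on hydroxylated jasmonate, had 92.4, 91.8 and 116 CPM in mutant embryos, against 10.6, 16.2 and 21.6 CPM in Col-0 embryos (log2 2.64, SE 0.24, adjusted p = 3.14e-06 by edgeR's quasi-likelihood test). In the seed coat ST2A had 107, 107 and 136 CPM in the mutant, against 8.60, 11.5 and 14.6 CPM in Col-0, with no overlap in either tissue. Of the amidohydrolases that split the isoleucine conjugate, ILL6 rose to 45.6 ± 4.27 CPM in mutant embryo, against 16.3 ± 1.34 CPM in Col-0 embryo (log2 1.48, adjusted p = 4.53e-07 by edgeR), and IAR3 fell (log2 -0.64, adjusted p = 0.00019 by edgeR). JOX2 (AT5G05600), an oxidase that inactivates jasmonic acid, fell to 8.40 ± 0.852 CPM in mutant embryo, against 21.1 ± 4.17 CPM in Col-0 embryo (log2 -1.33, adjusted p = 0.000114 by edgeR), and was lower still in seed coat, at 0.914 ± 0.251 CPM in mutant and 4.23 ± 1.13 CPM in Col-0.

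At the receptor, neither COI1 nor its partner ASK1 passed in the embryo; COI1 stood at 20.3 ± 3.40 CPM in mutant and 23.9 ± 3.85 CPM in Col-0 (log2 -0.23, adjusted p = 0.249 by edgeR, and -0.59 with adjusted p = 0.00534 on total reads). Both genes of the repressor bridge fell in mutant embryo, NINJA by 0.51 and TPL by 0.49 on the log2 scale (adjusted p = 0.001 and 0.00227 by edgeR). Of 9 tested transcription factors, 2 rose, 2 fell and 5 did not pass, beside 25.4% and 21.4% of all genes. ERF1 (lower) and ANAC055 (higher) are among these calls, but both failed the read filter when only the embryo groups were fitted. They entered the test through their seed coat reads, so little is read from their embryo calls. ANAC019, a factor that acts after MYC2, rose to 26.7 ± 3.39 CPM in mutant embryo, against 7.75 ± 0.960 CPM in Col-0 embryo (log2 1.78, adjusted p = 8.63e-06 by edgeR). MYC4, a paralogue of MYC2, fell (log2 -1.16, adjusted p = 0.0121 by edgeR), with the call lost without mutant replicate 3 (adjusted p = 0.0537), and MYC3 did not pass (log2 -0.28, adjusted p = 0.0562 by edgeR). MYC3 was past the threshold as lower in 5 of 7 other settings, with adjusted p of 0.0358 with RLE scaling, 0.000861 with total reads, 0.0118 in the 2-group edgeR fit, 0.0426 in that fit with the replicate block and 0.0294 by DESeq2. ERF1 fell (log2 -1.75, adjusted p = 0.0332 by edgeR) at 0.280 ± 0.0147 CPM in mutant embryo against 0.957 ± 0.580 CPM in Col-0 embryo, and lost its call without any 1 of 5 libraries. ANAC055, past the threshold as higher, had 0.112, 0 and 0.236 CPM in mutant embryos and 0 reads in Col-0 embryos, against 7.13, 6.60 and 8.64 CPM in mutant seed coats and 2.93, 4.23 and 3.46 CPM in Col-0 seed coats. Its embryo call was lost in 5 of the 6 edgeR fits that left out 1 library (adjusted p = 0.0506 to 0.101). None of 8 classical output genes, among them VSP2 and PDF1.2, had enough reads to be tested; JR1 held 33 reads in mutant seed coat, 19 in Col-0 seed coat and 0 in both embryo groups.

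The 5 genes whose log2 CPM over the 12 libraries was most like that of OPR3, of 11170 genes at 5 CPM or more on average, were QWRF2 (Pearson r = 0.986), the oleate desaturase gene FAD2 (0.984), AT4G15770 (0.980), the mitochondrial carrier gene mSFC1 (0.975) and AT5G65380 (0.975). The 12 libraries fall into 4 groups, so these values mostly describe the order of the group means. FAD2 averaged 16.5 CPM in mutant embryo, 39.8 CPM in Col-0 embryo, 8.73 CPM in mutant seed coat and 35.3 CPM in Col-0 seed coat. QWRF2 averaged 9.41, 14.1, 7.28 and 13.1 CPM in the same groups, with a narrower range than OPR3.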

How the data were processed

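The deposited table holds raw counts of reads per gene for 12 libraries, per the file headers. Per the submitters' processing notes the tools were bcl2fastq 2.19, fastp 0.12.4 and STAR 2.7.9a, with build TAIR10. The table equals the reverse-strand column of the per-library files in all 12. The sources used here do not say whether molecular identifiers served to remove duplicates. After 4 summary entries were removed, 32833 entries remained.

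Counts were tested with edgeR 4.0.16 (quasi-likelihood) in R 4.3.3, after filterByExpr (minimum count 10, minimum total 15) and TMM scaling, with 4 group means in 1 fit and 8 residual degrees of freedom. CPM uses TMM-scaled library sizes, and log2 CPM a prior count of 2. Lengths and names came from TAIR10.1, in which all 72 jasmonate genes were found. The workflow was tested on simulated data.

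The genes, the wider list and the comparisons were chosen with earlier results of these data known. Named beside the 10 genes were COI1, up to 4 genes per role with the smallest p among those called in the embryo, the gene of each role with the highest level per length, and the 5 genes most like OPR3. CYP94B3 and JOX4 were named for their spread, and further JAZ genes to complete the family, after the values were seen.

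Replicate numbers come from the labels. Deviations of same-numbered embryo and seed coat libraries correlated at 0.403, 0.507 and 0.162 in the mutant and 0.401, 0.456 and 0.274 in Col-0. Libraries of unlike number correlated at -0.442 to 0.225 in the mutant and -0.318 to -0.0516 in Col-0. Mutant embryo replicate 3 correlated more with seed coat replicate 1 (0.225) than with seed coat replicate 3 (0.162). The numbers were taken to pair the tissues, with this weak link for mutant replicate 3. Alternatives were RLE or total-read scaling, no filter, unstranded counts, DESeq2 1.42.0, 2-group fits with and without a replicate block, and leaving out each library.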

Additional observations from a re-analysis of the deposited data

Results flagged for a closer look

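Reads on the strand opposite to the counted one are not used in the comparisons above, and 3 such signals on jasmonate genes lay above the level in Col-0. Opposite-strand reads on LOX3 averaged 0.472 CPM in mutant embryo (23 reads), against 0.107 CPM in Col-0 embryo (6 reads). In the seed coat they averaged 1.81 CPM in the mutant (60 reads), against 0.342 CPM in Col-0 (11 reads). Opposite-strand reads on AOS averaged 0.308 CPM in mutant embryo (15 reads), against 0.0743 CPM in Col-0 embryo (4 reads). In these cases every mutant library lay above every Col-0 library, out of 10 genes looked at in 2 tissues, and the share of all genes with such a pattern was not computed. On AOS in seed coat the values lay the other way, with 1 opposite-strand read in the mutant and 6 in Col-0. Opposite-strand reads made up 27.7% of reads on LOX3 in mutant embryo against 8.22% in Col-0 embryo, and 33.9% in mutant seed coat against 9.65% in Col-0 seed coat. Over all genes, 94.4% to 96.4% of the strand-assigned reads of a library lay on the counted strand. The annotation used here lists no gene over LOX3 or AOS on the other strand. With reads of both strands, LOX3 was higher in mutant seed coat than in mutant embryo (log2 1.63, adjusted p = 0.0295 by edgeR). The differences in opposite-strand reads were not tested.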

How the results depend on the processing

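The embryo calls of OPR3, AOS and JAZ10 kept their direction and stayed past the threshold under every alternative run. Further changes are given here or beside the results above, and the cause was not tested. With total reads as the scale, the genes called between tissues rose from 5669 to 9450 in the mutant and from 7575 to 10236 in Col-0. The jasmonate genes called between tissues in Col-0, OPR3 left out, then numbered 3. On the same scale the log2 fold change turned to -0.254 for LOX3, -0.243 for ASK1 (adjusted p = 0.0415 by edgeR) and -0.112 for JAZ7 in the embryo. It turned to -0.329 for MYC2 between tissues in Col-0 and -0.261 for JAR1 between tissues in the mutant. Between genotypes same-numbered libraries did not deviate together (r of -0.298, -0.467 and -0.0626 in embryo), and a replicate block there gave -0.0844 for LOX3 and 1.19 for JAZ1 (adjusted p = 0.103 by edgeR). Jasmonate genes called between tissues in the mutant, OPR3 left out, numbered 2 with no low-count filter and 2 with unstranded counts. Calls over all genes there numbered 5640 and 5571. The paired block between tissues gave 5 in Col-0 and 2 in the mutant, and changed the calls named above, and for LOX4 in the mutant (log2 2.36, adjusted p = 1e-04 by edgeR).

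Leaving out 1 library at a time, the jasmonate genes called, OPR3 left out between tissues, numbered 1 to 2 between tissues in Col-0 (2 without Col-0 seed coat replicate 1), 1 to 3 between tissues in the mutant (3 without mutant embryo replicate 2, with LOX3 and AOS higher in seed coat) and 3 to 4 in the embryo. Calls over all genes in these fits numbered 6576 to 6967 between tissues in Col-0 and 4483 to 5396 in the mutant. In the embryo they numbered 6320 to 7237. The log2 fold change in the embryo ranged from -0.867 to 0.389 for LOX3, -1.06 to 0.0391 for MYC2, -3.37 to 0.42 for LOX4 and -0.946 to 0.163 for AOC3. Between tissues it ranged from -0.0295 to 0.487 for MYC2 in Col-0, -0.55 to 0.519 for MYC2 in the mutant and -0.446 to 0.498 for JAZ1 in the mutant. With 6 OPR3 reads in mutant seed coat, the size of that difference is limited by depth.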
